A study of Mus musculus with 6 samples.

Results

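Of 14236 circular RNA (circRNA) probes on a mouse array, 96 gave a bright signal whose mean, relative to the rest of the array, was nearly the same in myoblasts and in myotubes of the C2C12 line. They were chosen by rule. A member was well above background on all 6 arrays, ranked from 101 to 1000 in brightness among all circRNA probes, and had group means that differed by less than 0.1 on the log2 scale, which is 7.18%. The value behind the rule was the log2 processed signal minus that array's 75th percentile over all circRNA probes. Brightness and the small difference between the states therefore chose the members and are given as a description, with no test.

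The C2C12 line, grown from mouse muscle precursors, leaves the cell cycle at low serum and fuses into fibres with many nuclei. The myoblast group (3 arrays) came from cultures in high-glucose medium with 10% fetal bovine serum, and the myotube group (3 arrays) from cultures moved, near confluence, to medium with 2% horse serum. No genetic change was named for either group, and all cultures came from this 1 line, so it stands for muscle differentiation in culture only. Total RNA was labelled with Cy3 for a 1-colour array. Each group is described as 3 independent experiments, and the days of differentiation were not given in the labels. The 17 marker genes listed for myoblasts and myotubes had no match among the 44 of 50 gene probes that could be given a symbol, so the states could not be checked by markers.

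circRNAs are closed rings that form when the spliceosome joins a downstream splice donor to an upstream splice acceptor. Having no free ends, they resist exonucleases and tend to live longer than the linear transcripts of the same gene. In muscle and other tissues they are often found to change as cells stop dividing and differentiate. Probes are given here by their identifiers, since the files used here pair them with no host gene, so nothing can be said of the functions of the RNAs they read.

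A small difference was about as frequent at ranks 101 to 1000 as over all circRNA probes tested. The limit was narrower than the median standard error of a member's difference (0.18), so missing it does not by itself show a change. All 900 probes ranked from 101 to 1000 were well above background on all arrays, and 96 of them (10.7%) met the limit. The share was 11.8% over all 9348 circRNA probes that could be tested. Of the 900, 480 were lower in myotubes by 0.1 or more, 324 were higher by 0.1 or more, and 118 had an absolute difference of 1 or more. Among the brightest 100 probes 6 had a difference under 0.1, and among the 1000 probes that followed the window 118 did. Members lay in every band of 100 ranks, with 6 at ranks 101 to 200, 15 at ranks 201 to 300 and 10 at ranks 901 to 1000.

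The brightest member was ASCRP4000118, at rank 124. Its processed signal was 1091, 1514 and 1105 on the arrays of myoblasts 1, 2 and 3 and 1509, 1849 and 2260 on those of myotubes 1, 2 and 3. On the raw scale myotubes 2 and 3 were highest. Relative to each array's percentile the 6 values were 5.04, 5.38, 5.20, 5.33, 5.12 and 5.36 on the log2 scale, and the groups overlapped. The next in brightness was ASCRP4010044, with signals of 1091, 1147 and 1055 in myoblasts and 1439, 1788 and 1825 in myotubes. ASCRP4004256 followed with 901, 1072 and 952 against 1151, 1338 and 1535, and ASCRP4007783 with 694, 853 and 927 against 839, 1309 and 1404. For ASCRP4010044 and ASCRP4004256 every myotube signal exceeded every myoblast signal before scaling, while the scaled means differed by 0.077 and -0.079.

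The dimmest members were still far above the negative probes. ASCRP4011504, at rank 994, had signals of 136, 195 and 131 in myoblasts and 189, 218 and 269 in myotubes. The brightest negative probe of an array stood between 5.40 and 8.58, and the lowest signal of any member on any array was 114. ASCRP4003060, ASCRP4005743 and ASCRP4010854 completed the dim end, with mean signals of 158 ± 12.9, 157 ± 26.4 and 160 ± 33.9 in myoblasts and 216 ± 26.9, 226 ± 55.7 and 229 ± 55.5 in myotubes (SD, n = 3 each). Over all 96 members the mean signal ran from 187 to 1554, with a median of 337.

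The members were level with the percentile of their array, not level in raw signal. Their median signal was 263, 294 and 262 for myoblasts 1 to 3 and 306, 441 and 442 for myotubes 1 to 3. The 75th percentile itself stood at 33.2, 36.4 and 30.1 in myoblasts and at 37.6, 53.3 and 55.0 in myotubes. Without scaling, the members were between 1.35-fold and 1.55-fold higher in myotubes, with a median of 1.44-fold. That range follows from the rule, since the percentile was higher in myotubes by 0.53 on the log2 scale. The unscaled myotube signals were all above the myoblast signals for 56 of the 96 members, as for 45.8% of all circRNA probes tested and 42.7% of the window. The rule used the same contrast, so nothing is read from that count. On unscaled values limma called 5 of the 96 members higher in myotubes, beside 36.6% of all circRNA probes tested. Myotube 1, which shared its slide row with all myoblast arrays, had the lowest percentile and the lowest member median of the myotube arrays. Slide row, inferred from a barcode field of the file headers, and cell state cannot be fully told apart in this shift.

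Share of signal is a different measure, since a rise common to all probes would leave it unchanged. The members held 1.57%, 1.49% and 1.49% of the circRNA signal of the 3 myoblast arrays. They held 1.83%, 2.17% and 2.06% of that of the myotube arrays, and the groups did not overlap. The group means were 1.52% ± 0.0463 and 2.02% ± 0.173 (SD, n = 3 each). All ranks from 101 to 1000 together went from 16.4% ± 0.627 to 20.4% ± 1.39, and the members' part of that window was 9.26% ± 0.0722 and 9.90% ± 0.189 (SD, n = 3 each). The members were thus level against the percentile of the array but not as a share of its total signal.

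Order within an array needs no scaling. ASCRP4010355, among the members nearest to a difference of 0, took ranks 246, 230 and 226 for myoblasts and 228, 195 and 213 for myotubes. Its signals were 642, 739 and 661 in myoblasts and 727, 1171 and 1115 in myotubes. ASCRP4000571, the other of the 2 nearest to 0, took ranks 841, 928 and 859, then 906, 836 and 869. Over the members, the highest rank number of a probe was at the median 1.32 times its lowest, against 1.74 times for the other 804 probes of the window. A total of 80 of the 96 members and 504 of the other 804 (62.7%) kept a rank from 101 to 1000 on every array. Part of this contrast follows from the rule, which kept members' group means together.

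The spread between arrays of 1 group was not part of the rule. The pooled SD within groups had a median of 0.17 on the log2 scale over the members, from 0.034 to 0.69, and one of 0.20 over the other probes of the window. Among members it changed little with brightness, with medians of 0.16, 0.18 and 0.18 over ranks 101 to 400, 401 to 700 and 701 to 1000. The SD was larger in myotubes than in myoblasts for 47 of 96 members and for 460 of the other 804 probes. For scale, 16 control, custom and gene probes as bright as the members were printed in 10 spots each. Their SD between spots of 1 array had a median of 0.082 and ran from 0.044 to 0.51. Each circRNA probe has 1 spot, and the scanner software put the error of a member's signal at about 10.0% of it. That error was almost the same for every member, from 10.0002% to 10.0185%. It describes single signals, while the limit of 7.18% applies to a difference of group means, so they cannot be compared directly. From the median spot SD of 0.082 alone, such a difference would have a standard error of 0.067, below the limit of 0.1. A larger spot SD would give a larger standard error.

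The member with the smallest spread within groups was ASCRP4013150, with a pooled SD of 0.034. Its signals were 441, 498 and 419 in myoblasts and 552, 781 and 776 in myotubes, and relative to the percentile 3.73, 3.77 and 3.80 against 3.88, 3.87 and 3.82. Every scaled myotube value lay above every scaled myoblast value, by a difference of means of 0.088. It was the 1 member of 96 whose groups did not overlap, where 56.6% of the window's 900 probes had groups apart. The rule kept members' group means together and so favoured overlap, and nothing is read from this contrast. ASCRP4007904, ASCRP4013621 and ASCRP4011623 had the next smallest spreads, 0.059, 0.060 and 0.064. Their 6 scaled values lay within 1.11-fold, 1.13-fold and 1.12-fold of each other.

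At the other end, a mean near 0 hid large differences between arrays of 1 group. ASCRP4004395 gave 323, 195 and 513 in myoblasts and 257, 426 and 732 in myotubes, a 3.18-fold range after scaling and the widest of the members. Myoblast 3 and myotube 3 were high and myoblast 2 and myotube 1 low, so the group means met while single arrays did not. Its rank moved between 301 and 864. ASCRP4005158, with 232, 466 and 438 against 353, 649 and 630, was low on myoblast 1 and had a 2.08-fold range. ASCRP4006325, with 696, 627 and 412 against 452, 1118 and 1077, was low on myoblast 3 and myotube 1. ASCRP4011766 was dim on myoblasts 1 and 2 and on myotube 1, with 137, 152 and 214 against 145, 279 and 328. In these last 3 cases the scaled means still differed by less than 0.01.

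Most members were close on every array. The 6 scaled values lay within 1.2-fold for 19 of the 96 members, within 1.5-fold for 80 and within 2-fold for 94. The median ratio of highest to lowest array was 1.32, against 1.79 for the other probes of the window, a contrast that the rule in part fixed. Myoblast 3 was the highest myoblast array for 54 members and for 49.5% of the other probes, so the members shared in a pattern of that array. Myotube 1, the 1 myotube array in the slide row of the myoblasts, was the highest of its group for 38 members (39.6%) and for 50.4% of the others. It was the lowest for another 38 members and for 256 of the other 804 probes. It differed from the mean of myotubes 2 and 3 by over 0.5 for 10 members and 146 of the others.

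The precision of 3 arrays a group was coarser than the limit. In limma, 0 of the 96 members passed an adjusted p of 0.05 and 0 had an unadjusted p under 0.05, against 33.8% of all circRNA probes tested and 34.2% of the window called. Nothing is read from this count, because the rule used the same contrast. The standard error of a member's difference had a median of 0.18, and its 95% interval reached a median of 0.40 to either side. That interval stayed within 0.5 of 0 (a 1.41-fold change) for 76 members and within 1 (a 2-fold change) for 95, the exception being ASCRP4004395, with an interval from -1.06 to 0.86. It stayed within 0.25 for 0 members. The rule held the centre of every interval within 0.1 of 0, so these counts are a description and no evidence that changes are small. For ASCRP4000571 the difference was -9.4e-05 and the interval ran from -0.36 to 0.36. For every member the farther bound of the interval was at least a 1.28-fold change.

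Values on both sides of the limit were closely spaced. ASCRP4010444, with signals of 271, 319 and 255 against 354, 537 and 431, differed by 0.097, and ASCRP4002167 by 0.094. On the lower side ASCRP4004395 differed by -0.098 and ASCRP4003060 by -0.090. Just outside were ASCRP4009940 at 0.1007, ASCRP4002790 at 0.1010, ASCRP4010305 at -0.1006 and ASCRP4000748 at -0.1014, which the rule left out. At the ends of the rank window, ASCRP4006129 at rank 93 and ASCRP4013447 at rank 1002 had differences of -0.092 and -0.013. Of the members 44 were slightly higher and 52 slightly lower in myotubes, and 51 of the 96 differed by less than 0.05.

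Membership depended on single arrays. With 1 array left out in turn, between 57 (without myotube 1) and 77 (without myotube 2) of the 96 members still differed by less than 0.1. The same rule applied to the remaining arrays found 85 to 121 probes. Only 14 members stayed within the limit whichever array was left out. They include ASCRP4010355 at rank 209, ASCRP4007904, ASCRP4013621 and ASCRP4000571, and, named after their values were seen, ASCRP4008206 at rank 429 and ASCRP4005067 at rank 844. With slide row as a block, where myotube 1 alone gives the difference, 35 members stayed within 0.1 and 93 within 0.5, with a median difference of 0.016.

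Membership also depended on how the signal was corrected and scaled. Median scaling moved all members by the same amount, to a median difference of -0.090, and left 58 within 0.1. Quantile normalization left 71. In the authors' deposited log2 values 52 stayed within 0.1 and 88 within 0.2, with a median of 0.075 and a range from -0.15 to 0.39. Under normexp background correction with the 75th percentile, the members had a median difference of 0.22, and 10 stayed within 0.1. In that setting limma called 15 of the 96 higher in myotubes, beside 13.0% of all circRNA probes tested. The offset of 50 that normexp adds exceeded the 75th percentile of the processed signal on 4 of the 6 arrays. After it the percentile was higher in myotubes by 0.23 on the log2 scale, while the members were higher by a median of 0.45. On processed signals both were higher by 0.53. The 7 scalings and corrections tried were the median, the 75th percentile over all non-control probes or over probes above background on all arrays, quantile normalization, normexp with the percentile or with quantile normalization, and the deposited values. No member stayed within 0.1 under all of them. Median scaling lowered every difference and normexp with the percentile raised the median of the members. Under the 4 scalings of the processed signal 35 members stayed within 0.1. Of these 4, the 75th percentile over all non-control probes nearly repeats the rule's own scaling and kept all 96. The count of 35 is therefore no independent check of the members.

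Part of this dependence moved with the place of the spot on the array. Feature Extraction, the scanner software, multiplies signals by a factor that varies over the array, and this factor differed between the slide rows. For the members it ran from 0.847 to 1.35 over the myoblast arrays and from 0.864 to 1.28 on myotube 1, was 1 on myotube 2, and ran from 0.949 to 1.12 on myotube 3. Without the factor 63 of the 96 members differed by less than 0.1, with a median of -0.015 and a range from -0.23 to 0.31. In that setting the difference of ASCRP4010444 was 0.31, that of ASCRP4007783 0.22 and that of ASCRP4004256 -0.23. The 15 members within 5 spots of the array's edge had a median of 0.062 without the factor and 0.14 in the deposited values. The 81 members further in had -0.018 and 0.062. The other probes of the window had -0.18 and -0.060 near the edge and -0.25 and -0.15 further in. The order by place was thus not particular to the members. The first slide row held all myoblast arrays and myotube 1, and the part of the factor in the members' choice beyond these values was not tested.

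The array also carried Actb, the cytoplasmic beta-actin that often serves as a reference gene. It was printed in 10 spots and had signals of 550, 653 and 487 in myoblasts and 289, 292 and 352 in myotubes. Relative to the same percentile its myoblast level was 4.08 ± 0.080 and its myotube level 2.69 ± 0.25 (SD, n = 3 each), a difference of -1.39 on the log2 scale. Without scaling that difference was -0.85. Every member was higher in myotubes without scaling, which follows from the rule, since the percentile itself was higher there by 0.53. The labels do not say if linear RNA was digested first, which bears on how far this signal stands for Actb messenger RNA.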

How the data were processed

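The 6 arrays, of 1 colour, were scanned and, per the file headers, read by the Feature Extraction software, version 11.0.1.1. The deposited processed signal is an intensity after background subtraction and detrending within the array, not scaled between arrays. The deposited value table holds log2 values, a scale inferred from their range, and the authors' normalization of them is not stated in the labels. Groups and replicate numbers came from the sample titles. Slide row was inferred from the first number of the barcode field in the file headers. From log2 of the processed signal the array's own 75th percentile over circRNA probes was subtracted, with outlier-flagged spots kept (0 members had one). The 9348 probes that all 3 arrays of either group showed above background went into limma (version 3.58.1, under R 4.3.3; lmFit, eBayes). Tests were 2-sided, adjusted by Benjamini-Hochberg and read at 0.05. The fit was checked on simulated data. Members and named probes (extremes of level, spread and difference, and probes next to the limits) were chosen with earlier results of these data known. The lists planned for host genes were not used. Normexp used the median signal of each spot, in place of the planned mean signal, with an offset of 50. The number of arrays limits the precision. The p-values measure only the spread between these arrays. Deviations of same-numbered arrays correlated at -0.019, 0.020 and -0.084 over the tested probes, so the numbers were not taken as pairs.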

Additional observations from a re-analysis of the deposited data

How the results depend on the processing

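The members are 96, with 0 called by limma, beside 33.8% of all circRNA probes tested. With limits of 0.05 and 0.2 the rule found 51 and 197 probes, and after normexp correction with the 75th percentile 176. The 96 members within 0.1 became 58 under median scaling, 71 under quantile normalization, 62 after normexp and quantile normalization, 10 after normexp and the percentile, 52 in the deposited values, 63 without multiplicative detrending (a setting chosen after seeing the data), 35 with slide row as a block, 35 within the first slide row and 0 without scaling. Leaving out 1 array gave 57 to 77. The members' median difference was 0.22 after normexp with the percentile and 0.53 without scaling, and limma then called 15 and 5 members, all higher in myotubes, where 13.0% and 36.6% of all tested circRNA probes were called higher. In the other settings with a fit it called 0 members, from which nothing is read, since the rule used the same contrast. Of all tested circRNA probes limma called 3163, against 1607 with slide row as a block, 1108 within the first row and 2064 to 3057 with 1 array left out, the lowest without myotube 3. With the replicate number as a block it called 2798 circRNA probes and 0 members. The block leaves each difference of group means unchanged, and the rule held these under 0.1, so nothing is read from that 0. Removing the detection filter left 96 members and could not change them, since all 900 probes of the window passed it. Leaving out outlier flags gave 97. The median spread of the members within groups was 0.17, from 0.14 to 0.18 in the other scaled settings and 0.25 without scaling. Beyond the constructions named, the cause of these shifts was not tested. With 3 arrays a group, changes below the intervals given cannot be seen.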
